A study of Mus musculus with 9 samples.

Results

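The 4 CC chemokines Ccl2, Ccl7, Ccl5 and Ccl20 were examined across 9 messenger RNA sequencing libraries of 66cl4, a mouse mammary carcinoma line labelled as triple negative. Their rows were selected by gene symbol from a table of 52208 genes, and all 4 were found and passed the low-count filter that left 16766 genes for testing. Add-back cells carried a short hairpin RNA against Eya3 and IKK2-SE, an always-active version of IKK2, the kinase that releases NF-kB from its inhibitor. Knockdown cells carried the same hairpin with an empty vector, and scramble cells carried a non-targeting hairpin with the empty vector. Each group had 3 replicate libraries, and cells of all groups were kept in puromycin for the hairpin and selected on mCherry for the vector. The sample titles number the Eya3 hairpin KD2 and the table's columns number it KD3. The active kinase was not put into scramble cells in these libraries, so a return of what the knockdown lost and an effect IKK2-SE has in any 66cl4 cell cannot be told apart.

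CC chemokines are small secreted proteins named for a pair of neighbouring cysteines near the start of the mature chain, and they guide leukocytes by signalling through G protein-coupled receptors. Ccl2 and Ccl7 act mainly through Ccr2 and draw monocytes, and Ccl7 also binds Ccr1 and Ccr3. Ccl5, also called RANTES, acts on T cells, monocytes and eosinophils, and Ccl20 acts through Ccr6 on T helper cells of the IL-17 type, B cells and immature dendritic cells. In many cell types their genes are induced by NF-kB, and Ccl5 is also a target of interferon regulatory factors. Tumour cells are a known source of Ccl2 in mammary carcinoma.

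The coding stretches below, 36 bases each from the GENCODE transcripts of GRCm38, show the feature that joins the 4 genes in a family, with the neighbouring cysteine codons in capitals.
Ccl2: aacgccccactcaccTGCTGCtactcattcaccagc
Ccl7: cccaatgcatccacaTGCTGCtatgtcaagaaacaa
Ccl5: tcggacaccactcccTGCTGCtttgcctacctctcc
Ccl20: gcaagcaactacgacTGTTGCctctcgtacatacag
The codons are numbers 34 and 35 of Ccl2, 33 and 34 of Ccl7 and of Ccl5, and 32 and 33 of Ccl20. Outside the codons the stretches differ, and the closest coding sequences among the 4, those of Ccl2 and Ccl7, had the same base at 72.4% of aligned positions. The longest run of bases that the Ccl2 and Ccl7 transcripts share is 23 bases, and it is shown because reads within such a run could not be assigned to either gene.
Shared run of Ccl2 and Ccl7: ctctcactgaagccagctctctc
All other pairs among the 4 shared at most 11 bases in a row, so the 4 rows count different reads for nearly all of their length.

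Ccl2 (chromosome 11, 82035571 to 82037453, plus strand, GRCm38) and Ccl7 (chromosome 11, 82045712 to 82047525, plus strand) lie 10.1 kb apart from start to start. Ccl5 (chromosome 11, 83525778 to 83530518, minus strand) starts 1494.9 kb from Ccl2, in another group of CC chemokine genes. Ccl20 (chromosome 1, 83116766 to 83119167, plus strand) stands alone. Of the 4, only Ccl20 was matched in the RefSeq promoter table (GRCm38.p6), whose windows hold 300 bases around the start. Its promoter, chr1:83116516-83116815 on the plus strand, is therefore the only one printed, with no promoter of the others to compare. Ccl20 also had the largest difference between add-back and scramble cells among the 4. Capitals mark bases in a match to the letters of an NF-kB (kB) site, read as 3 Gs, 5 bases of any kind and 2 Cs and searched on both strands.
Ccl20 promoter: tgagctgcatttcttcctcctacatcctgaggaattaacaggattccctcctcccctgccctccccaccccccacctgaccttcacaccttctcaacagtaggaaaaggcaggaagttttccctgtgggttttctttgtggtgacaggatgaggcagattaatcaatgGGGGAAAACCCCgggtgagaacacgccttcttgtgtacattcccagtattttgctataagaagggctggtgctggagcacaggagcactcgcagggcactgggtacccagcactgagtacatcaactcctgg
The window held 3 overlapping matches between positions -82 and -71 from the start at 0. These letters are loose and occurred in 50.8% of the 32851 promoter windows in the table. The central match, GGGAAAACCC, was found on either strand in 40 windows, or 0.122%, a count made after the match had been seen. The AP-1 letters, TGA and TCA with 1 base between them, had no match on either strand and are present in 7.81% of windows. The interferon response element, read as GAAA, 2 bases of any kind and GAAA again, and the TATA box, TATAAA, had none either and are present in 3.44% and 13.6% of windows. A match to letters is a description of the sequence and not of binding.

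Library totals ran from 63601403 to 81534534 counts, and levels are given in CPM, counts relative to the TMM-scaled library total. Eya3 averaged 26.6 ± 2.21 CPM in add-back cells, 25.0 ± 0.60 CPM in knockdown cells and 62.7 ± 1.63 CPM in scramble cells (SD, n = 3 each), so the libraries match their hairpin labels. Ikbkb, the gene for IKK2, averaged 48.6, 44.3 and 47.8 CPM in the same order. Add-back cells differed by 0.13 ± 0.05 from knockdown and 0.02 ± 0.05 from scramble cells (edgeR adjusted p = 0.0809 and 0.682). The Ikbkb counts thus do not show the IKK2-SE vector, which is known from the labels. Of the epithelial markers, Krt8 averaged 1073, 1329 and 628 CPM in add-back, knockdown and scramble cells, while Epcam had 2, 0 and 10 counts and Cdh1 had 2, 3 and 16 counts over the 3 libraries of each group. Of the macrophage markers, Ptprc had 12, 7 and 5 counts per group in the same order, Aif1 had 4, 0 and 0, and Adgre1 had 2, 0 and 0. Others on that list were well detected, with Cd14 at 11.9, 7.50 and 15.3 CPM, Cd68 at 3.43, 4.196 and 14.5 CPM and Mrc1 at 4.16, 0.929 and 6.005 CPM. The sample titles call the libraries biological replicates but do not say whether they came from separate transductions. The p-values therefore cover only the spread between these libraries, which may not include that between transductions.

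Ccl2 was nearly lost in the knockdown cells and came back short of the scramble level with IKK2-SE. Its level was 34.9, 30.2 and 37.0 CPM in the add-back libraries, 0.312, 0.433 and 0.239 CPM in the knockdown libraries, and 42.4, 50.4 and 62.2 CPM in the scramble libraries. The 3 groups did not overlap, and the scramble libraries spread most in absolute terms. The knockdown mean was 0.636% of the scramble mean, a log2 fold change of -7.29 ± 0.23 (edgeR quasi-likelihood test, adjusted p = 6.12e-10). IKK2-SE raised Ccl2 by 6.68 ± 0.23 on the log2 scale over the knockdown cells (edgeR adjusted p = 2.69e-08). The add-back mean stood at 65.9% of the scramble mean, a log2 fold change of -0.60 ± 0.13 that passed the test (edgeR adjusted p = 0.00238). In such bulk libraries, fewer cells making a chemokine and less RNA per cell cannot be told apart.

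Ccl7, the neighbour of Ccl2 and a ligand of the same monocyte receptor, was also nearly lost, but it returned to several times its scramble level. Its level was 8.08, 6.70 and 8.49 CPM in the add-back libraries, 0.0125, 0.0382 and 0 CPM in the knockdown libraries, and 1.18, 1.43 and 2.27 CPM in the scramble libraries. Every add-back library lay above every scramble library, and every knockdown library lay below. The fitted fall with knockdown was -6.45 ± 0.48 on the log2 scale (edgeR adjusted p = 9.18e-09). It rests on 1, 3 and 0 counts in the knockdown libraries, against 76, 112 and 171 in the scramble libraries. From the summed counts, 4 in knockdown cells and 359 in scramble cells, the ratio was 0.0104, with an exact 95% counting interval from 0.00282 to 0.0268. IKK2-SE raised Ccl7 by 8.69 ± 0.38 over knockdown (edgeR adjusted p = 3.55e-10), the 4th largest rise among genes called in that comparison. The ratio of summed counts was 453, with a counting interval from 176.8 to 1666. Against scramble cells the add-back mean was 4.77 times as high, a log2 fold change of 2.24 ± 0.19 (edgeR adjusted p = 6.15e-08).

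Ccl5 fell less far in the knockdown cells, with 177 to 260 counts left per library, and rose past the scramble level with IKK2-SE. Its level was 22.9, 17.9 and 19.4 CPM in the add-back libraries, 2.91, 2.26 and 3.46 CPM in the knockdown libraries, and 10.5, 12.2 and 11.4 CPM in the scramble libraries. No group overlapped another. The knockdown mean was 25.4% of the scramble mean, with a log2 fold change of -1.98 ± 0.13 (edgeR adjusted p = 2.87e-09). The add-back cells were higher than the knockdown cells by 2.81 ± 0.13 (edgeR adjusted p = 7.13e-10) and higher than the scramble cells by 0.82 ± 0.11 (edgeR adjusted p = 1.26e-05), or 1.77 times.

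Ccl20, the ligand of Ccr6, had few counts in knockdown and scramble cells and rose well above both with IKK2-SE. The add-back libraries held 413, 378 and 425 counts, against 9, 11 and 10 in the knockdown libraries and 11, 3 and 16 in the scramble libraries. In CPM these were 5.45, 5.34 and 6.07 with IKK2-SE, 0.112, 0.140 and 0.133 in knockdown cells, and 0.170, 0.0384 and 0.213 in scramble cells. The knockdown values lay within the range of the scramble values, and the add-back values lay far above both. Knockdown and scramble cells differed by -0.10 ± 0.44 on the log2 scale (edgeR adjusted p = 0.863), with a 95% interval from -1.04 to 0.84. Changes anywhere within that interval remain compatible with these low counts. IKK2-SE cells were higher by 5.43 ± 0.26 than knockdown cells (edgeR adjusted p = 5.89e-10) and by 5.33 ± 0.26 than scramble cells (edgeR adjusted p = 4.31e-11), or 40.05 times the scramble mean.

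**Figure D1:**
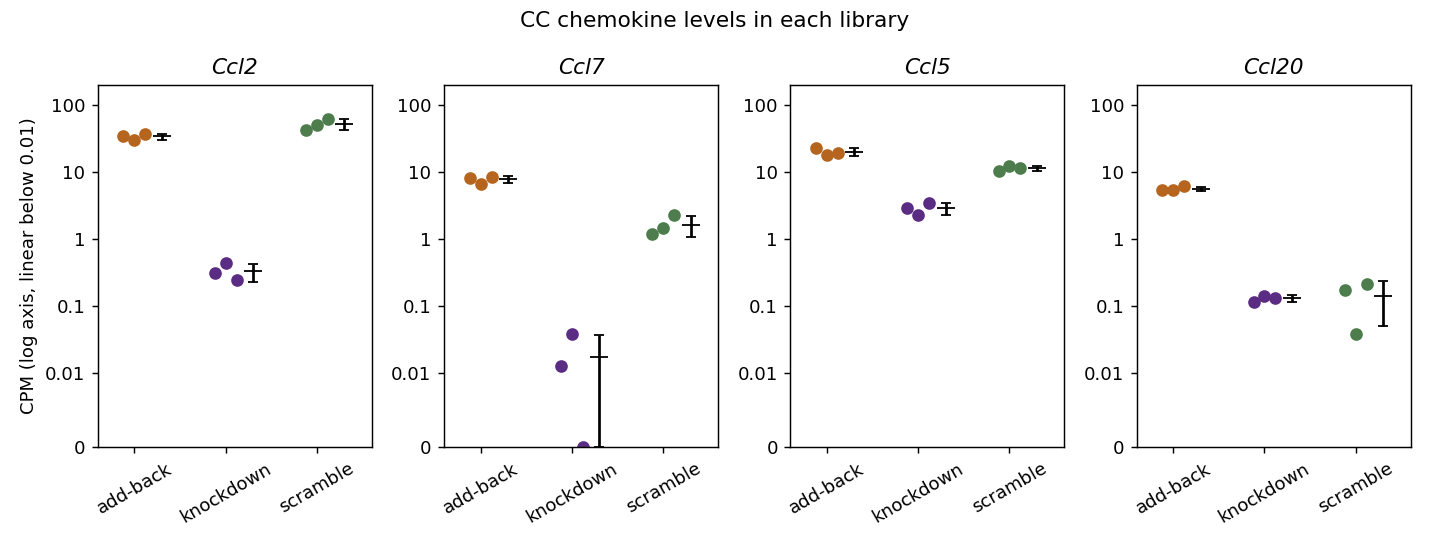
Levels of the 4 chemokines in CPM (vertical axis, logarithmic above 0.01 and linear below) in each add-back, knockdown and scramble library (points), with the mean and SD of 3 libraries beside them, lower bars stopping at 0. Ccl2, Ccl7 and Ccl5 are lowest in knockdown cells, and Ccl20 is at 0.140 CPM or less in knockdown cells and 0.213 CPM or less in scramble cells.

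Set against all genes, 3 of the 4 chemokines fell with knockdown, where 29.9% of tested genes fell, 27.7% rose and 57.5% changed in either direction. All 4 rose with IKK2-SE over the knockdown cells, where 5.61% of tested genes rose, 4.82% fell and 10.4% changed in either direction. Against scramble, 3 of the 4 were higher in add-back cells and Ccl2 was lower, where 27% of tested genes were higher, 28.7% lower and 55.8% changed in either direction. The 3 comparisons share groups and are not separate evidence.

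**Figure D2:**
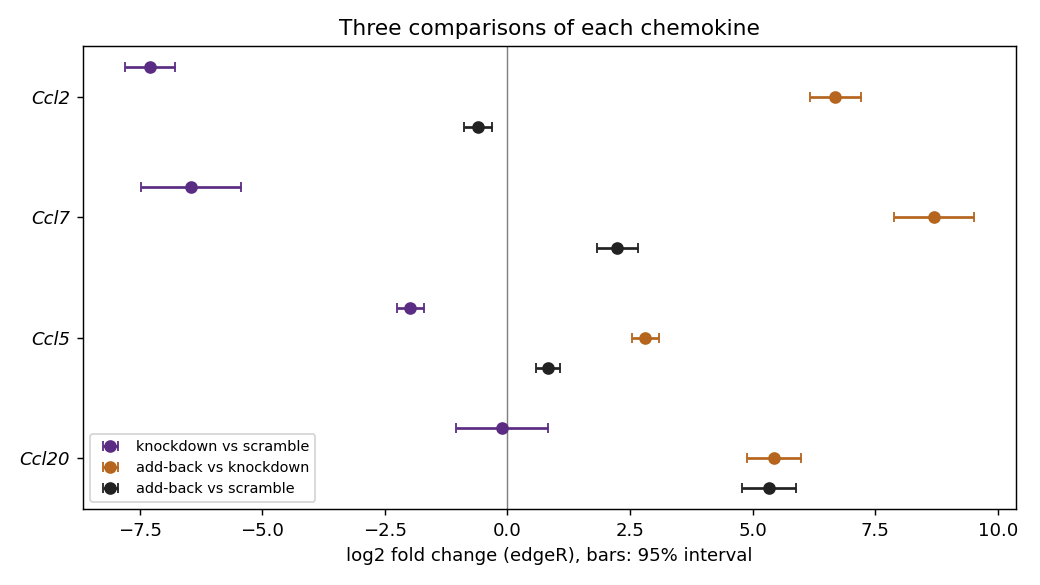
Log2 fold changes from edgeR (horizontal axis) for each chemokine (rows) in the 3 comparisons (colours), with 95% intervals as bars. Add-back against scramble (black) lies at -0.60 for Ccl2, 0.82 for Ccl5, 2.24 for Ccl7 and 5.33 for Ccl20.

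The folds lost and gained differed from gene to gene. The fold of the means lost with knockdown was 157.3 for Ccl2, 96.2 for Ccl7, 3.94 for Ccl5 and 1.09 for Ccl20. The fold gained with IKK2-SE over knockdown was 104 for Ccl2, 459 for Ccl7, 6.98 for Ccl5 and 43.7 for Ccl20. The Ccl7 values rest on 4 counts in the knockdown group, so the order of Ccl2 and Ccl7 by the fold lost is not resolved. Without knockdown replicate 2 their log2 changes were -7.53 for Ccl2 and -7.65 for Ccl7. Per kilobase of annotated exon, add-back cells had 29.9 CPM of Ccl2, 20.9 of Ccl5, 9.68 of Ccl7 and 3.96 of Ccl20. Scramble cells had 45.4 CPM per kilobase of Ccl2, 11.8 of Ccl5, 2.03 of Ccl7 and 0.0988 of Ccl20. In knockdown cells Ccl5 was the highest, at 2.99 CPM per kilobase, above Ccl2 at 0.289, Ccl20 at 0.0904 and Ccl7 at 0.0211. Neighbours in these per-kilobase orders stood further apart than their SDs, which was not tested further.

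The balance between the 4 messages also differed between add-back and scramble cells, first of all that between the neighbours Ccl7 and Ccl2. Per 100 counts of Ccl2, the add-back libraries had 23.2, 22.2 and 22.9 counts of Ccl7, against 2.77, 2.85 and 3.65 in the scramble libraries. The ratio was 2.89 higher on the log2 scale with IKK2-SE, and the libraries did not overlap. Corrected for exon length, Ccl7 stood at 31.5% to 32.9% of Ccl2 in add-back libraries and at 3.94% to 5.19% in scramble libraries. Ccl5 per 100 counts of Ccl2 was 65.8, 59.1 and 52.4 in add-back libraries and 24.7, 24.1 and 18.3 in scramble libraries. Ccl20 per 100 counts of Ccl2 was 15.6, 17.7 and 16.4 in add-back libraries and 0.402, 0.0762 and 0.342 in scramble libraries. Among the other pairs, Ccl5 fell relative to Ccl7 by 1.48 on the log2 scale, and Ccl20 was higher by 3.35 relative to Ccl7 and by 4.83 relative to Ccl5. For each of the 6 pairs the exact two-sided permutation test gave p = 0.1, also after adjustment over the 6, which is the smallest p that 3 against 3 libraries allow. No pair could therefore pass a threshold of 0.05. The ratios with Ccl20 lean on scramble replicate 2, which had 3 counts of it. Without that library they were 5.48 over Ccl2, 2.64 over Ccl7 and 4.01 over Ccl5.

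**Figure D3:**
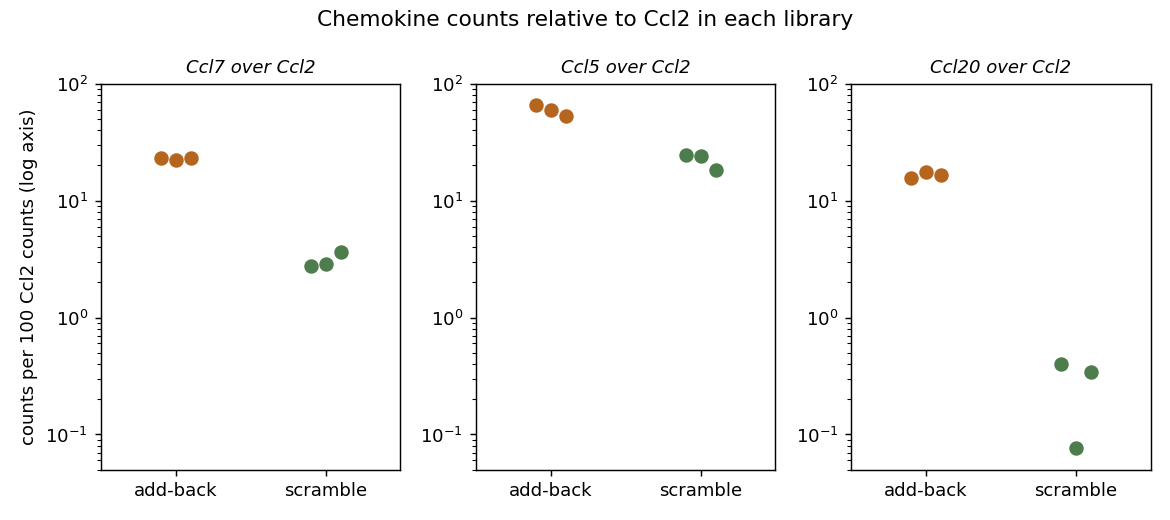
Counts of Ccl7, Ccl5 and Ccl20 per 100 counts of Ccl2 (vertical log axis) in the 3 add-back and 3 scramble libraries (points). The add-back points lie above the scramble points in each panel, at 22.2 to 23.2 against 2.77 to 3.65 for Ccl7.

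The libraries of a group ranked alike for some of the 4 genes. In scramble cells, Ccl2 and Ccl7 were both lowest in replicate 1 and highest in replicate 3, with coefficients of variation of 19.3% and 35.2%, while Ccl5 varied by 7.34% and was highest in replicate 2. In add-back cells, Ccl2, Ccl7 and Ccl20 were lowest in replicate 2 and highest in replicate 3, with coefficients of variation of 10.2%, 12.1% and 7%, while Ccl5 was lowest in replicate 2 and highest in replicate 1.

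The rest of the CC family was mostly silent in this line. Of 21 listed CC ligands, 5 had no count in any library (Ccl12, Ccl19, Ccl21a, Ccl24 and Ccl26) and 8 passed the filter. These 8 include Ccl2, Ccl7, Ccl5 and Ccl20 themselves, beside Ccl6, Ccl9, Ccl17 and Ccl25. Of the 8, 1 rose (Ccl9) and 3 fell (Ccl2, Ccl5 and Ccl7) with knockdown, a share called of 50%, against 57.5% of all tested genes. With IKK2-SE over knockdown 5 rose (Ccl2, Ccl5, Ccl7, Ccl17 and Ccl20) and none fell, a share of 62.5%, against 10.4%. The median log2 change of the 8 was -0.485 and 4.02 in these comparisons, against -0.00146 and 0.000583 over all tested genes. The shares and medians thus largely restate the changes of the chosen chemokines. Ccl17 passed the filter only through the add-back libraries, where it was highest, so the counts and medians describe the 8 and support nothing further.

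Ccl17, a ligand of Ccr4 on T cells, had 18, 17 and 13 counts in add-back libraries, 0, 1 and 0 in knockdown libraries, and 1, 1 and 0 in scramble libraries. It rose by 5.23 ± 0.86 over knockdown (edgeR adjusted p = 0.000706), though DESeq2 gave it no adjusted p and the CPM filter removed it, and the ratio of summed counts, 48 to 1, was 51.8, with a counting interval from 8.87 to 2089. Ccl9, a macrophage chemokine of mice, rose with knockdown, the opposite of Ccl5, 48.1 kb away. It averaged 0.713 ± 0.164 CPM in knockdown cells, against 0.0417 ± 0.0143 CPM in scramble cells (SD, n = 3 each), a log2 fold change of 4.05 ± 0.38 (edgeR adjusted p = 1.02e-07). Between add-back and knockdown cells Ccl9 differed by 0.60 ± 0.23 (edgeR adjusted p = 0.126). Ccl6, a related chemokine found in mice, differed by 1.31 ± 0.55 between knockdown and scramble cells (edgeR adjusted p = 0.0519) and was higher in add-back than in scramble cells by 1.57 ± 0.54 (edgeR adjusted p = 0.0212). Ccl25, the thymus and gut chemokine, averaged 1.76, 1.99 and 1.56 CPM in add-back, knockdown and scramble cells and did not pass edgeR's test in any of the 3 comparisons.

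**Figure D4:**
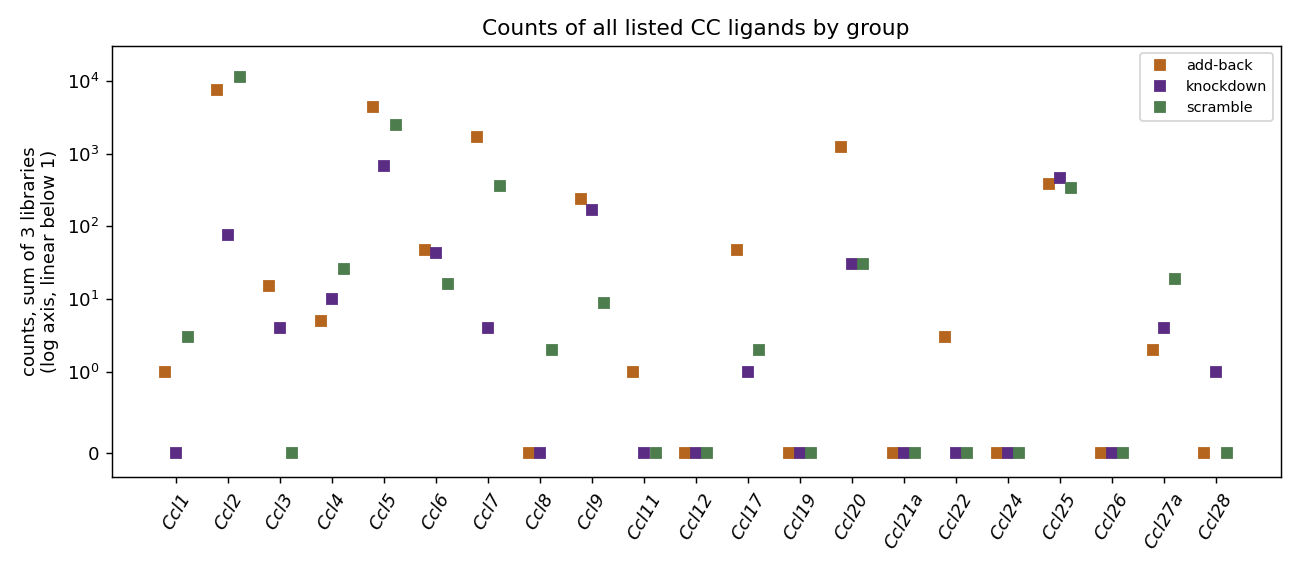
Counts summed over the 3 libraries of each group (vertical axis, logarithmic above 1 and linear below) for the 21 listed CC ligands. Ccl2, Ccl5, Ccl7 and Ccl20 hold 1216 to 7371 counts in add-back cells, and Ccl8, Ccl11 and Ccl12 hold at most 2 in any group.

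Other genes around the 4 were read by their counts or, where tested, by their changes. The genes next in line after Ccl2 and Ccl7 were near 0 in every group: Ccl11, 22.3 kb from the start of Ccl2, had 1, 0 and 0 counts in add-back, knockdown and scramble cells, Ccl8, at 79.6 kb, had 0, 0 and 2, and Ccl12, at 66.3 kb, had none. Within 500 kb of Ccl2 or Ccl7, no gene other than the pair itself passed the filter, of 14 annotated. The closest tested genes beyond were Cct6b and Zfp830, both 728.8 kb from Ccl2. Zfp830, a zinc finger gene, was at 0.01 ± 0.08 with knockdown and 0.04 ± 0.08 with IKK2-SE over knockdown (edgeR adjusted p = 0.957 and 0.872). On the other side Cdk5r1, a CDK5 activator 1558.5 kb away, fell with knockdown by 1.64 ± 0.21 (edgeR adjusted p = 5.16e-06) and differed by 0.24 ± 0.23 with IKK2-SE (edgeR adjusted p = 0.627).

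Around Ccl5, 16 other genes within 500 kb were tested. With knockdown 5 rose and 6 fell, with a median of 0.16, and with IKK2-SE over knockdown 2 rose and 1 fell, with a median of 0.02, where 57.5% and 10.4% of all tested genes were called. The members of the Schlafen family differed among themselves. Slfn2, at -465.4 kb from the start of Ccl5 by coordinate, was the only neighbour to fall and return by more than 1 on the log2 scale, with -4.01 for knockdown against scramble and 3.23 for add-back against knockdown. Slfn4, at -355.3 kb, fell by 5.74 with knockdown and differed by -0.09 with IKK2-SE (edgeR adjusted p = 0.974). Around Ccl20, 4 other genes were tested, of which 2 rose with knockdown, and none passed with IKK2-SE over knockdown. The closest, the thiamine transporter gene Slc19a3 at -78.3 kb, differed by 0.49 ± 0.58 in that comparison (edgeR adjusted p = 0.708).

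**Figure D5:**
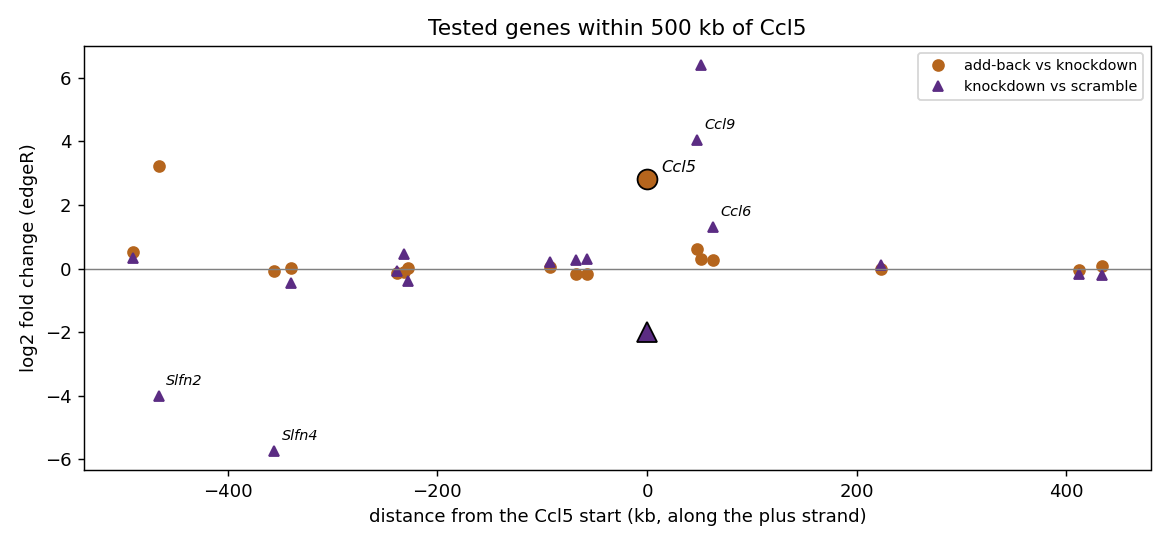
Log2 fold changes (vertical axis) of the 16 other tested genes within 500 kb of Ccl5 by distance from its start in kb (horizontal axis), for add-back against knockdown (circles) and knockdown against scramble (triangles), with Ccl5 as large outlined symbols. Ccl9 at 4.05 and Ccl5 at -1.98 lie on opposite sides of 0 with knockdown.

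Receptors of Ccl2, Ccl7 and Ccl20 had almost no reads in the cells. Ccr2, the receptor of Ccl2 and Ccl7, had 1, 0 and 0 counts in add-back, knockdown and scramble cells over 3 libraries each, and Ccr6, the receptor of Ccl20, had 2, 1 and 0. Ccr1 and Ccr3 had none. Of 15 listed CC receptors, 2 passed the filter. Both fell with knockdown, where 29.9% of all tested genes fell and 57.5% changed in either direction. Ccrl2 passed only through the scramble libraries, and Ccr7 had 10, 15 and 0 counts in the knockdown libraries. Ccr7, the lymph node homing receptor, averaged 0.105 ± 0.097 CPM in knockdown cells and 0.586 ± 0.057 CPM in scramble cells (SD, n = 3 each), a log2 change of -2.44 ± 0.54 (edgeR adjusted p = 0.00105). Ccrl2, a receptor that binds chemerin without signalling, changed by -2.67 ± 0.51 in the same comparison (edgeR adjusted p = 0.000275). With IKK2-SE over knockdown, Ccr7 and Ccrl2 differed by 0.64 ± 0.62 and 1.08 ± 0.58 (edgeR adjusted p = 0.627 and 0.31). Ackr2, a decoy receptor that clears inflammatory CC chemokines, was below the filter, with 5, 10 and 21 counts in add-back libraries, 0, 0 and 1 in knockdown libraries, and 0, 3 and 0 in scramble libraries.

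Genes known to control chemokine transcription or message stability were read in the same comparisons. Of 23 listed regulators, 14 fell and 2 rose with knockdown, so that 69.6% were called, against 57.5% of all tested genes. With IKK2-SE over knockdown 12 rose and 1 fell, so that 56.5% were called, against 10.4% of all tested genes. Their median log2 change was -0.276 and 0.272 in these comparisons, against -0.00146 and 0.000583 over all tested genes. Against scramble, 7 were higher and 11 lower in add-back cells, so that 78.3% were called, against 55.8% of all tested genes. Nfkbia, the NF-kB inhibitor that NF-kB itself induces, averaged 109.6 ± 0.99 CPM in add-back cells, 44.3 ± 0.029 CPM in knockdown cells and 221 ± 5.76 CPM in scramble cells (SD, n = 3 each). Like Ccl2, it returned in part, with -1.01 ± 0.03 for add-back against scramble (edgeR adjusted p = 4.98e-13). Bcl3, a nuclear IkB protein that joins p50 and p52 on DNA, fell by 3.01 ± 0.11 with knockdown (edgeR adjusted p = 6.49e-13) and rose by 1.12 ± 0.11 with IKK2-SE (edgeR adjusted p = 5.69e-06). Relb, the NF-kB subunit of the alternative pathway, fell by 0.95 ± 0.06 and rose by 0.27 ± 0.06 in these comparisons (edgeR adjusted p = 6.55e-10 and 0.00624). The AP-1 subunit gene Fosl1 fell by 0.90 ± 0.05 and rose by 0.32 ± 0.05 (edgeR adjusted p = 1.32e-10 and 0.000358).

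Other regulators went past the scramble level, as Ccl7, Ccl5 and Ccl20 did. Nfkbiz, an inducible nuclear IkB protein needed for part of the NF-kB response, averaged 44.1 ± 1.18 CPM in add-back cells, 16.0 ± 0.94 CPM in knockdown cells and 18.2 ± 1.34 CPM in scramble cells (SD, n = 3 each). It was higher in add-back than in scramble cells by 1.28 ± 0.06 (edgeR adjusted p = 3.34e-11). Nfkb1, the gene for the p50 precursor, was higher by 0.63 ± 0.04 in the same comparison (edgeR adjusted p = 4.82e-10). With knockdown Nfkb1 differed by 0.06 ± 0.04 and did not pass (edgeR adjusted p = 0.159). Zc3h12a, whose product Regnase-1 degrades inflammatory messages, fell by 0.88 ± 0.06 with knockdown and rose by 1.20 ± 0.06 with IKK2-SE (edgeR adjusted p = 3.33e-09 and 1.07e-09), ending 0.32 ± 0.06 above scramble (edgeR adjusted p = 0.000179).

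The genes whose pattern lay closest to each chemokine were found among 10503 tested genes other than the 4 by the distance between their log2 changes with knockdown and with IKK2-SE over knockdown. By this distance Ccl2 and Ccl7 lay 2.17 apart, a smaller value than from either to any of those genes. Both changes of Ccl7 rest on 4 counts in the knockdown group, so that order is not resolved. For Ccl2 the closest of the 10503 was Csf3, the granulocyte growth factor G-CSF, at a distance of 2.65 on the log2 scale. Acod1, the itaconate-making enzyme, followed at 3.32 and Nlrp14 at 3.65. Nlrp14 averaged 0.0843, 0.0085 and 2.09 CPM in add-back, knockdown and scramble cells, so it stayed far below the scramble level, unlike Ccl2. Csf3 at 2.95 and Acod1 at 4.09 were also the closest of the 10503 to Ccl7, followed by the acute-phase gene Saa3 at 4.85. None of the 10503 lay within 2 of Ccl2 or Ccl7. Ccl5 had nearer ones: Cxcl1, a neutrophil chemokine, at 0.58, Neurl3, a ubiquitin ligase gene, at 0.651 and Mrc1, the mannose receptor, at 0.956. Cxcl1 averaged 188.6, 19.0 and 91.8 CPM in add-back, knockdown and scramble cells. For Ccl20 they were Mtmr7, a myotubularin family gene, at 0.876, the lipocalin Lcn2 at 1.55 and Enpp2, which encodes autotaxin, at 1.64. Mtmr7 averaged 3.06, 0.0462 and 0.0817 CPM in the same order, and Enpp2 averaged 2.06, 0.0294 and 0.0947 CPM. The changes of Mtmr7 and Enpp2 with knockdown therefore rest on very low levels.

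Markers of other cell types were measured beside these changes. The 8 macrophage markers summed to 19.4 to 20.2 CPM in add-back libraries, 12.5 to 13.3 CPM in knockdown libraries and 35.1 to 36.7 CPM in scramble libraries. Of the 8, Cd68, Mrc1 and Cd14 fell with knockdown, and Mrc1 and Cd14 rose with IKK2-SE. Ptprc, Itgam, Adgre1 and Aif1 were at 13 counts or fewer per group. Csf1r had 31, 45 and 18 counts in add-back, knockdown and scramble cells. Its change with knockdown was 1.22 ± 0.60 (edgeR adjusted p = 0.095). The 6 lymphocyte markers summed to at most 0.226 CPM in any library. The 4 endothelial markers summed to 0.622 to 0.971 CPM in add-back libraries, 0.213 to 0.459 CPM in knockdown libraries and 4.32 to 5.11 CPM in scramble libraries. This sum was carried by Cdh5, at 0.634, 0.226 and 4.36 CPM on average, while Pecam1, Kdr and Tek averaged at most 0.197 CPM in any group. The 4 fibroblast markers summed to 52.9 to 56.4, 44.2 to 48.9 and 48.3 to 49.9 CPM in the same order, carried by Pdgfra. Within that list Pdgfrb averaged 10.7, 7.08 and 1.24 CPM in add-back, knockdown and scramble cells. It rose with knockdown and again with IKK2-SE in edgeR's test. Dcn had 155, 15 and 0 counts in the same order. It passed the filter only through the add-back libraries, where it was highest, so only its counts are given. The 6 epithelial markers, nearly all Krt8, summed to 1029 to 1106, 1254 to 1388 and 595.5 to 648.9 CPM. The 7 mitochondrial and nuclear transcripts that track RNA quality summed to ranges that overlapped between groups, a sum carried by the mitochondrial ones. The nuclear RNA Malat1 fell by 0.50 ± 0.13 with knockdown (edgeR adjusted p = 0.00995) and Neat1 fell by 0.41 ± 0.07 with IKK2-SE over knockdown (edgeR adjusted p = 0.00189), and both were lower in add-back than in scramble cells. The part of any of these in the chemokine differences was not tested.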

How the data were processed

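The authors deposited a table of raw counts, 1 whole number per gene symbol and library. Per the submitters' processing notes, reads were handled with FastQC, MultiQC and STAR on mm10, with no versions given, and no source used here names the read counter or its strand setting. Columns were matched to libraries by arm and replicate number. In R 4.3.3 with edgeR 4.0.16, the low-count filter filterByExpr was set to a minimum count of 10 and a minimum total of 15. TMM factors and robust quasi-likelihood fits used all 9 libraries together, modelling the 3 groups (6 residual degrees of freedom). Benjamini-Hochberg adjustment ran over 16766 genes, with calls at 0.05. A standard error is the log2 fold change divided by the square root of F. Intervals are 95%, and counting intervals are exact (Clopper-Pearson) and cover counting error only. Replicates within a group differed by more than sampling noise (chi-square per degree of freedom 3.62 to 18.8).

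Positions and exon lengths come from GENCODE for GRCm38, and promoters from RefSeq. The members and lists were chosen with earlier results of these data known. Named genes were the 4 chemokines, up to 4 regulators per comparison with the smallest adjusted p, all filtered CC ligands and receptors, and per chemokine the 3 nearest genes whose group mean reached 1 (log2 CPM) in some group. Eya3 and Ikbkb were named as checks of the labels. Genes below the filter, neighbours beyond 500 kb, the Schlafen genes and the receptors without a test were named after their values were seen. Alternatives were RLE scaling, library totals, DESeq2 1.42.0, limma voom 3.58.1, other filters, fits of 2 groups, a replicate term and leaving out each library.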

Additional observations from a re-analysis of the deposited data

How the results depend on the processing

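The calls for Ccl2, Ccl7 and Ccl5 in all 3 comparisons, and for Ccl20 against knockdown and scramble with IKK2-SE, kept their direction and their side of the threshold under all 17 alternatives. Their largest adjusted p was 0.00965, for Ccl2 in add-back against scramble cells, whose log2 change ran from -0.72 to -0.44. For Ccl7 the fall with knockdown ran from -7.65 to -5.92 and the rise with IKK2-SE from 8.17 to 9.90. The uncalled difference of Ccl20 between knockdown and scramble cells turned from -0.10 to 0.19 with limma voom. It ran from -0.58 to 0.38 when 1 library was left out, turning without scramble replicate 1 (0.05) or scramble replicate 3 (0.38). Its adjusted p was at least 0.202 throughout.

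With the replicate number as a block, 2678 genes were called between add-back and knockdown cells, against 1749 without it, and leaving out 1 library gave 1168 to 1800. In their deviations from the group means, same-numbered libraries correlated from -0.011 to 0.281 and other-numbered ones from -0.237 to 0.0768. Of 18 comparisons, 12 were highest with the own number, so same-numbered libraries tended to deviate alike. The sample titles do not say whether equal numbers mark libraries handled together, and the main fit did not use the numbers. The block changed no call of the 4 chemokines. CC receptors called with knockdown numbered 0 with the CPM filter, against 2, and 2 to 3 when 1 library was left out. The additional receptor, also called without the filter, was Ackr4. It had 42, 13 and 0 counts in add-back, knockdown and scramble cells and so was higher with knockdown, unlike Ccr7 and Ccrl2. Between add-back and knockdown cells 1 receptor, Ackr2, was called without the filter and 0 to 1 when 1 library was left out, against 0. With library totals as the scaling, 65.9% of calls between add-back and knockdown cells were higher, against 53.8%. Low counts limit Ccl20 outside the add-back cells and Ccl7 in knockdown cells. The log2 ratios of Ccl20 to Ccl2, Ccl7 and Ccl5 between add-back and scramble cells ran from 5.48 to 6.68, 2.64 to 3.86 and 4.01 to 5.30 when 1 library was left out.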
